A study of Mus musculus with 8 samples.

Results

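The 6 type IV collagen chains, Col4a1 to Col4a6, are described here in RNA from the mouse lens capsule. They were taken by gene symbol from a table of read counts for 54532 genes, in which each of the 6 symbols matched 1 gene. All 6 passed the filter on low counts, among 15857 genes tested. The study asked how gene expression changes in an injury model of fibrotic cataract, which its labels call ASC. Lens capsules of 4 ASC libraries and 4 sham libraries were sequenced on day 7 after surgery. Every library came from wild-type (WT) C57BL/6 mice aged 6 to 8 weeks. In the ASC eyes a 26-gauge needle was passed through the cornea to open the centre of the front capsule, and in the sham eyes the cornea was cut while the capsule stayed closed. The 4 libraries of a group are labelled as biological replicates, and the sources used here do not give how many mice or capsules entered each.

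Type IV collagen is the network-forming collagen of basement membranes, and the lens capsule is an unusually thick basement membrane that the lens epithelium lays down throughout life. Alpha chains wind together into a protomer inside the cell, and protomers then join end to end outside it, through the globular NC1 domain at one end and the 7S domain at the other. The alpha1 and alpha2 chains build the network found in nearly all basement membranes. The alpha3, alpha4 and alpha5 chains build a more heavily crosslinked one in kidney, lung, inner ear and eye, and in people defects in them cause Alport syndrome, in which the lens can bulge through a weak capsule. The alpha5 and alpha6 chains also combine in some epithelial and smooth muscle basement membranes. The genes lie in head-to-head pairs, each pair transcribed outward from a common region.

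That arrangement is visible in the start regions of the genes, which are printed because the chains are compared pair by pair. The windows are RefSeq's, on build GRCm38.p6, and run from 250 bases before to 50 bases after the start of each gene. A window was found for 5 of the 6 chains, and Col4a3 is named only. The windows of Col4a1 (chr8:11312777-11313076, minus strand) and Col4a2 (chr8:11312555-11312854, plus strand) overlap over 78 bases, which are in capitals in both.
Col4a1: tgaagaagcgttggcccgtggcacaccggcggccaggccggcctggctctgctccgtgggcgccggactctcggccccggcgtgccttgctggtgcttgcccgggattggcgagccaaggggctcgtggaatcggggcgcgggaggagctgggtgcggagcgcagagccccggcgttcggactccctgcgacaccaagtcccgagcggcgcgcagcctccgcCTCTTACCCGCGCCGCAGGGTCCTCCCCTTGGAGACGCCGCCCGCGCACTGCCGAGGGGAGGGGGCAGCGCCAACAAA
Col4a2: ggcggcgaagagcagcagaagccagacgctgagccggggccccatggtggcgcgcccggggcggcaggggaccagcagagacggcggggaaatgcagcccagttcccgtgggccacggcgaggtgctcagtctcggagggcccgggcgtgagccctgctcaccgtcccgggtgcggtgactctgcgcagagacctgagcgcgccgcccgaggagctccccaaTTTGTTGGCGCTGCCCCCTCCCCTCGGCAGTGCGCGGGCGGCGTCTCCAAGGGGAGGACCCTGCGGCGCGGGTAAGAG
The capitals of one are the reverse complement of the capitals of the other, so the same 78 bases lie at both starts. The windows of Col4a5 (chrX:141475169-141475468, plus strand) and Col4a6 (chrX:141474027-141474326, minus strand) lie 842 bases apart and share none. In these the capitals mark matches to the motifs described next.
Col4a5: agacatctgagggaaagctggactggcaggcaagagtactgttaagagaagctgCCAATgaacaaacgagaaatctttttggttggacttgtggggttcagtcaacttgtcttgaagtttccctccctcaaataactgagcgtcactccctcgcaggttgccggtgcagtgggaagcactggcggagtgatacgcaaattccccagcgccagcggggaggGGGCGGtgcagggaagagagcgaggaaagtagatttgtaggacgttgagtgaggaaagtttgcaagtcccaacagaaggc
Col4a6: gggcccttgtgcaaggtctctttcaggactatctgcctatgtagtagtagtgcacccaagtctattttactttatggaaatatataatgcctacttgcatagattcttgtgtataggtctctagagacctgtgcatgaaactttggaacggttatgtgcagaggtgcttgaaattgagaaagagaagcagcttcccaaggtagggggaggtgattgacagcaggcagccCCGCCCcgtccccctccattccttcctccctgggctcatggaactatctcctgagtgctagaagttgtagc
The Col4a1 and Col4a2 windows are rich in G and C (74% and 73.7%) and hold 37 and 33 CpG dinucleotides. The Col4a5 and Col4a6 windows have 52.7% and 48.3% G and C and 11 and 3 CpGs, and the median over 32851 RefSeq windows of the same length was 52.7% and 7. Col4a4 (chr1:82586800-82587099, minus strand) lay between, at 63.3% and 14.

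Both strands of each window were searched for TATAAA, the letters of a TATA box, CCAAT and GGGCGG, the core of a GC box. No TATAAA was found in any of the 5 windows, and 13.6% of all windows hold it. CCAAT occurred 1 time each in the Col4a1, Col4a2 and Col4a5 windows, and 37.4% of all windows hold it. GGGCGG occurred 3 times in the Col4a2 window and 1 time each in those of Col4a1, Col4a5 and Col4a6, against 35.7% of all windows with a match. No match overlapped another motif, and the Col4a4 window held none of the 3. A match is a string of letters and was not tested as a binding site.

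Library totals were 14638645 to 19067642 counts in ASC and 14420494 to 21141582 in sham. The defining genes of the lens epithelium were present in every library, with Foxe3 at 265 to 393 and Pax6 at 386 to 483 CPM (read counts scaled to TMM-adjusted library sizes). Alpha-crystallin Cryaa stood at 116187 to 188557 CPM. In edgeR's quasi-likelihood test, 162 of the 15857 tested genes, 1.02%, passed an adjusted p of 0.05, with 0.631% higher and 0.391% lower in ASC. That balance of 100 higher to 62 lower depended on the scaling, with 75 to 70 by library totals alone and 107 to 22 when scaled to lens epithelial genes, a setting chosen after seeing the data.

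Type IV collagen transcripts made up 1.41% ± 0.267 of all counts in ASC and 1.54% ± 0.261 in sham (SD, n = 4 each). Set beside the other collagens per length of exon, the 6 chains held between 87.6% and 95.6% of the summed CPM per kilobase of all 31 tested collagen genes. Counting error was small at this depth, at most 1.44% for any chain in any library, so the spread described here is between libraries and not from counting. None of the 6 chains passed the threshold (0 higher, 0 lower), beside 1.02% of all genes tested, and 0 of 6 had an unadjusted p under 0.05, beside 14.7% of all genes. The ASC and sham values overlapped for all 6, while 9.06% of all tested genes showed no overlap between the groups. By DESeq2 the count of chains was also 0. The median log2 fold change of the chains was -0.02, and that of all tested genes was 0.008. In whole capsules, fewer cells of a type and less RNA per cell cannot be told apart.

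The ubiquitous pair came first by level. Col4a1 (ENSMUSG00000031502, chromosome 8), which supplies the commonest chain of the basement membrane network, had 8176, 5949, 6353 and 8792 CPM in the ASC libraries 1 to 4, against 7536, 8125, 7282 and 6154 CPM in the sham libraries 1 to 4. The ASC libraries held both the highest values (ASC 1 and ASC 4) and the lowest (ASC 2), with the sham libraries within their range. The means were 7318 ± 1380 CPM in ASC and 7274 ± 826 CPM in sham (SD, n = 4 each), a log2 fold change of 0.01 (95% interval -0.36 to 0.38, edgeR adjusted p = 0.99). As a fold, that interval runs from 0.779 to 1.30, so a change of Col4a1 by more than about this much in either direction lies outside it.

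Col4a2 (ENSMUSG00000031503), whose product joins alpha1 in the same protomer, followed its partner. It had 4832, 3456, 3566 and 5222 CPM in ASC 1 to 4, against 4263, 4494, 4189 and 3552 CPM in sham 1 to 4. Again ASC 1 and ASC 4 were above every sham library, while ASC 2 was below every one and ASC 3 level with sham 4. Its means were 4269 ± 891 CPM in ASC and 4125 ± 403 CPM in sham, with a log2 fold change of 0.05 (95% interval -0.32 to 0.41, edgeR adjusted p = 0.928). The sign of both small values turned with library totals as the scaling (-0.13 for Col4a1 and -0.084 for Col4a2), a setting that moved the median of all genes to -0.116.

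The spread of this pair was wider in ASC, with a coefficient of variation of 18.9% for Col4a1 and 20.9% for Col4a2, against 11.4% and 9.77% in sham. Whether the spread itself differs between groups was not tested. The exons of Col4a1 and Col4a2 share 22 bases on opposite strands, and those of Col4a2 share 43 with Gm15419, an antisense gene with 8 to 41 counts per library, so reads there could be counted for either gene.

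**Figure D1:**
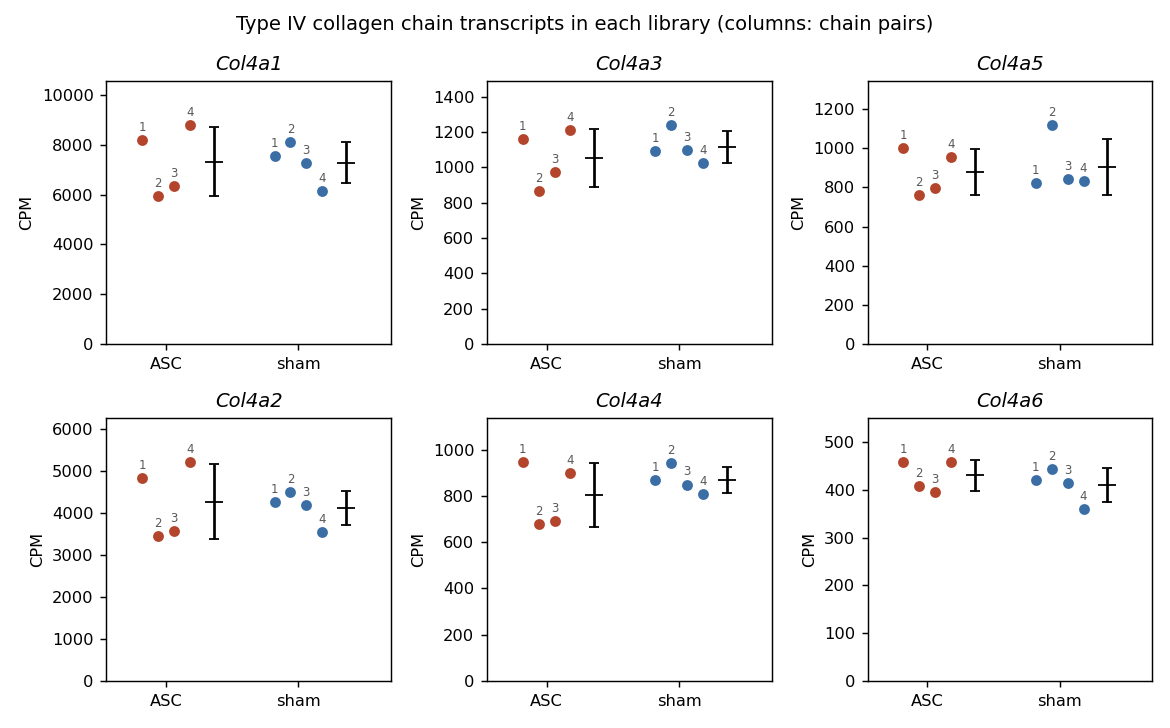
Levels of the 6 chains in CPM (vertical axes from 0) in each ASC library (red, left) and each sham library (blue, right), numbered by replicate, with mean and SD beside each group. In every panel the groups overlap, with ASC 1 and ASC 4 above ASC 2 and ASC 3.

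Col4a3 and Col4a4 encode the chains of the network that is restricted to certain basement membranes, and both lie on chromosome 1. Col4a3 (ENSMUSG00000079465) had 1163, 865, 973 and 1212 CPM in ASC 1 to 4, against 1095, 1241, 1100 and 1023 CPM in sham 1 to 4. ASC 2 and ASC 3 were below all sham libraries, and ASC 1 and ASC 4 stood among the upper ones. The log2 fold change was -0.08 (95% interval -0.38 to 0.21, edgeR adjusted p = 0.830), from means of 1053 ± 163 CPM in ASC and 1114 ± 91.0 CPM in sham. A transcript on the opposite strand, C430014B12Rik, covers 5.65% of the Col4a3 exon length, and it had 67 to 140 counts per library. The sources used here do not give whether reads were assigned by strand.

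Col4a4 (ENSMUSG00000067158), the partner of Col4a3, had 949, 678, 692 and 898 CPM in ASC 1 to 4, against 869.9, 944, 849.9 and 809 CPM in sham 1 to 4. ASC 2 and ASC 3 again lay below every sham library, and ASC 1 above every one. Means of 804 ± 139.5 CPM in ASC and 868 ± 56.7 CPM in sham gave the largest difference of any chain, a log2 fold change of -0.11 (95% interval -0.41 to 0.19, edgeR adjusted p = 0.762). The interval as a fold was 0.754 to 1.14. Both genes had a negative log2 fold change in each of the 19 alternatives run, and neither passed the threshold in any.

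Col4a5 and Col4a6 lie on the X chromosome, where Col4a5 is the gene affected in the X-linked form of Alport syndrome. Col4a5 (ENSMUSG00000031274) had 1001, 762, 799 and 954 CPM in ASC 1 to 4, against 824, 1119, 845 and 833 CPM in sham 1 to 4. The other 3 sham libraries lay within a narrow band, and sham 2 stood above all 8. The log2 fold change was -0.04 (95% interval -0.35 to 0.27, edgeR adjusted p = 0.928), and without sham 2 it was 0.07, still short of the threshold. The means were 879 ± 117 CPM in ASC and 905 ± 143 CPM in sham.

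Col4a6 (ENSMUSG00000031273) was the least abundant chain and the least variable in ASC. It had 459, 407, 396 and 458 CPM in ASC 1 to 4, against 421, 445, 414 and 359.9 CPM in sham 1 to 4. ASC 1 and ASC 4 were above all sham libraries, and ASC 2 and ASC 3 lay between sham 3 and sham 4. Its log2 fold change was 0.07 (95% interval -0.17 to 0.30, edgeR adjusted p = 0.816) with TMM scaling and -0.061 with library totals alone, from means of 430.1 ± 33.4 CPM in ASC and 409.9 ± 35.8 CPM in sham. The interval as a fold, 0.892 to 1.23, was the narrowest of the 6.

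Levels of different chains can be set side by side once divided by length, here the union of each gene's exons in GENCODE release 21. On that scale Col4a1 averaged 980 ± 185 CPM per kilobase in ASC and 975 ± 111 in sham, and Col4a2 645 ± 135 in ASC and 623 ± 60.9 in sham. Next came Col4a5, with 131 ± 17.3 CPM per kilobase in ASC and 135 ± 21.3 in sham, and Col4a3, with 106 ± 16.3 in ASC and 112 ± 9.13 in sham. Col4a4 had 75.8 ± 13.1 CPM per kilobase in ASC and 81.8 ± 5.34 in sham, and Col4a6 53.9 ± 4.20 in ASC and 51.4 ± 4.49 in sham. The order Col4a1, Col4a2, Col4a5, Col4a3, Col4a4, Col4a6 was found in 8 of 8 libraries. By raw CPM, which longer genes inflate, Col4a3 stood above Col4a5 in every library, since its exons span 9967 bases and those of Col4a5 span 6718.

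The largest step in this order was between Col4a2 and Col4a5, a ratio of 4.08 to 5.55 across libraries (median 4.75). Col4a1 exceeded Col4a2 by 1.49 to 1.60 times, and Col4a3 exceeded Col4a4 by 1.31 to 1.50 times. The step from Col4a5 to Col4a3 was the smallest, 1.12 to 1.34 times. It also depended on the length used. With the longest coding transcript in place of the exon union it ran from 0.985 to 1.18, and in sham 1 Col4a3 came out above Col4a5. These 2 neighbours are therefore not separated by the data once the choice of length is allowed for.

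Summed by pair, Col4a1 and Col4a2 held 81.5% ± 1.02 of the family's CPM per kilobase in ASC and 80.8% ± 1.01 in sham. Col4a3 and Col4a4 held 9.14% ± 0.323 in ASC and 9.82% ± 0.439 in sham, and Col4a5 and Col4a6 held 9.37% ± 0.731 in ASC and 9.41% ± 0.684 in sham (SD, n = 4 each). Among the 31 tested collagens, ranks 1 to 5 per kilobase belonged to Col4a1, Col4a2, Col4a5, Col4a3 and Col4a4 in every library. Col4a6 shared ranks 6 and 7 with Col6a3, a chain of the beaded-filament type VI collagen, which had 49.8 ± 9.78 CPM per kilobase in ASC and 40.5 ± 3.69 in sham.

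**Figure D2:**
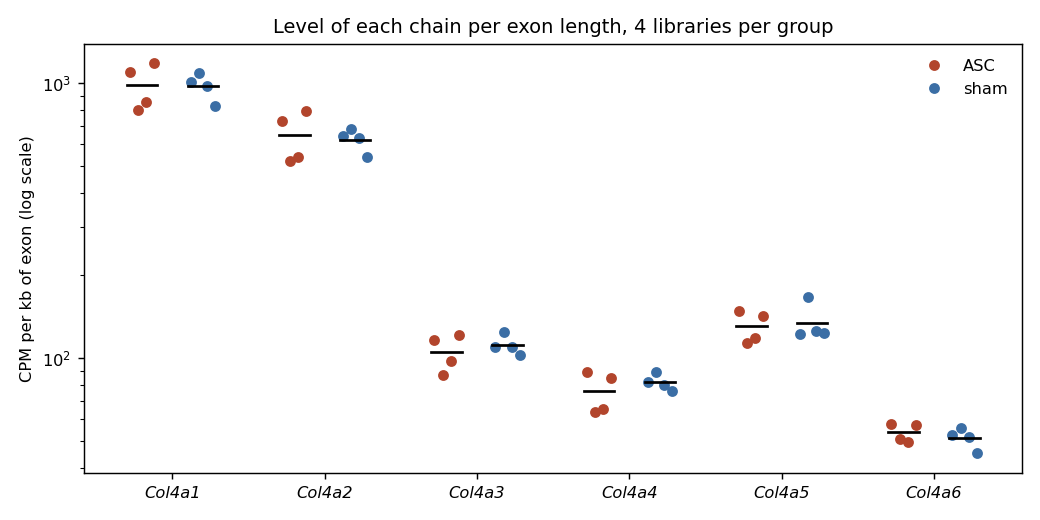
CPM per kilobase of exon (log scale) of each chain in the 4 ASC libraries (red, left of each pair) and the 4 sham libraries (blue, right), with a bar at each group mean. Col4a2 stands 4.08 to 5.55 times above Col4a5, the next chain in order, and the groups overlap within each chain.

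The balance of partner chains was compared through ratios of their counts in the same library, in which library size cancels. For every 100 Col4a1 counts there were 59.1, 58.1, 56.1 and 59.4 Col4a2 counts in ASC 1 to 4, against 56.6, 55.3, 57.5 and 57.7 in sham 1 to 4. The pair kept nearly the same proportion in all 8 libraries. The log2 ratio averaged -0.78 ± 0.04 in ASC and -0.82 ± 0.03 in sham, a difference of 0.03 that was within the overlap of the groups (two-sided exact permutation p = 0.2, n = 4 each).

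For every 100 Col4a3 counts there were 81.6, 78.4, 71.1 and 74.1 Col4a4 counts in ASC 1 to 4, against 79.5, 76.1, 77.3 and 79.1 in sham 1 to 4. ASC libraries reached both further up and further down than sham ones, and the log2 difference was -0.03 (exact permutation p = 0.486, n = 4 each). For every 100 Col4a5 counts there were 45.9, 53.5, 49.5 and 48.0 Col4a6 counts in ASC 1 to 4, against 51.1, 39.7, 49.0 and 43.2 in sham 1 to 4. This pair varied most, with sham 2 lowest, and its log2 difference of 0.11 was smaller than the SD of 0.17 among sham libraries (exact permutation p = 0.314, n = 4 each).

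Between pairs, the summed Col4a3 and Col4a4 counts were 16.2, 16.4, 16.8 and 15.1 per 100 counts of Col4a1 plus Col4a2 in ASC 1 to 4, against 16.6, 17.3, 17.0 and 18.9 in sham 1 to 4. Here the groups all but separated, with sham 1 the only sham library below an ASC library (ASC 3). The log2 ratio averaged -2.63 ± 0.07 in ASC and -2.52 ± 0.08 in sham, a difference of -0.11, or a fold of 0.924 (two-sided exact permutation p = 0.0571, n = 4 each). The smallest p that 70 assignments of 8 libraries allow is 0.0286. Adjusted over the 5 ratios compared, the p was 0.286, which is not past the threshold. With that smallest p, a single ratio on its own could not pass after this adjustment, even with the groups fully apart. The adjusted test therefore cannot decide whether this ratio differs between groups.

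The summed Col4a5 and Col4a6 counts were 11.2, 12.4, 12.0 and 10.1 per 100 counts of Col4a1 plus Col4a2 in ASC 1 to 4, against 10.6, 12.4, 11.0 and 12.3 in sham 1 to 4. The groups overlapped throughout, with a log2 difference of -0.01 (exact permutation p = 0.886, n = 4 each). Of the other 4 ratios, adjusted p-values were 0.5 for Col4a2 to Col4a1, 0.607 for Col4a4 to Col4a3, 0.524 for Col4a6 to Col4a5 and 0.886 for this one.

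**Figure D3:**
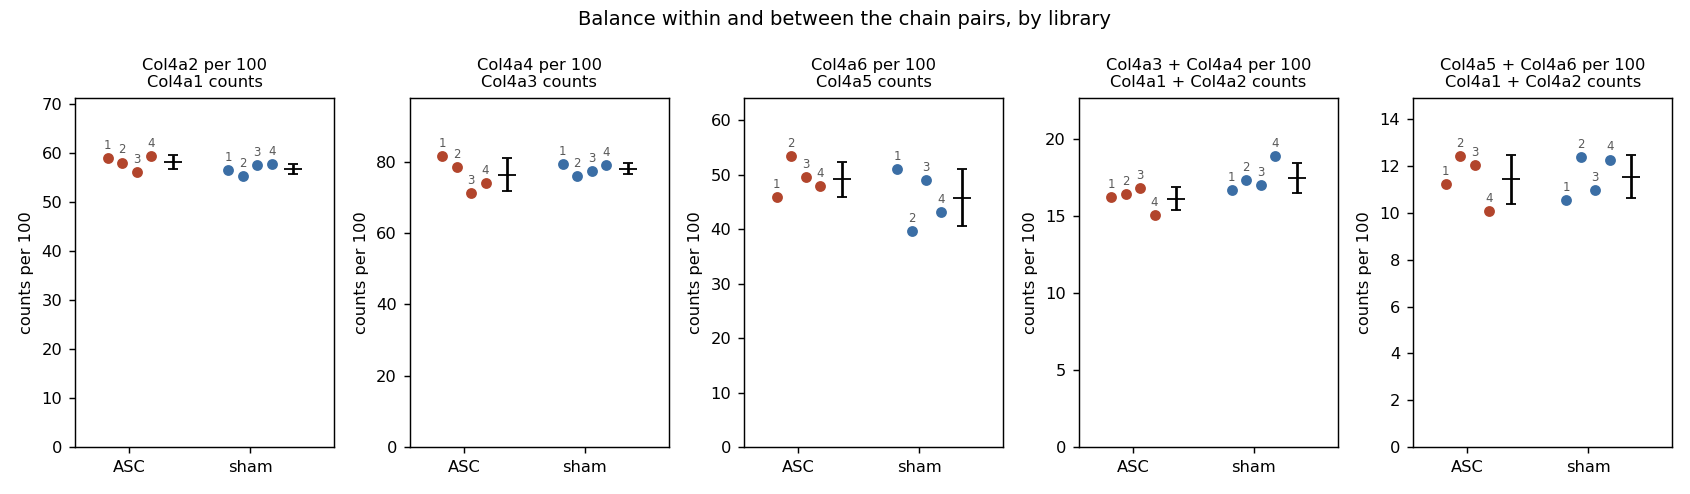
Count ratios within the 3 chain pairs and between pairs (counts per 100, axes from 0) in each ASC library (red, left) and each sham library (blue, right), with mean and SD. The ratio of Col4a3 plus Col4a4 to Col4a1 plus Col4a2 shows the least overlap, with ASC at 15.1 to 16.8 and sham at 16.6 to 18.9.

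Although no chain differed between groups past the threshold, the chains moved together from library to library. Relative to its own mean log2 CPM over the 8 libraries, every chain was high in ASC 1 (by 0.11 to 0.22), in ASC 4 (by 0.11 to 0.33) and in sham 2 (by 0.09 to 0.34). Every chain was low in ASC 2 (-0.32 to -0.04), in ASC 3 (-0.26 to -0.08) and in sham 4 (-0.23 to -0.04). For each of the 6 chains, ASC 1 and ASC 4 were thus above ASC 2 and ASC 3.

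After each group's mean was subtracted, the correlation over the 8 libraries was 0.991 between Col4a1 and Col4a2, 0.939 between Col4a3 and Col4a4, and 0.764 between Col4a5 and Col4a6. The first couple held the highest value of the 15 possible. The alpha3 and alpha4 couple did not stand apart, since Col4a1 correlated with Col4a3 at 0.961 and Col4a2 with Col4a4 at 0.945. Nor did the X-linked couple, since Col4a5 correlated with Col4a3 at 0.877 and Col4a6 with Col4a1 at 0.922. These are descriptions over 8 points, and all chains of a library share its scaling factor (0.864 to 1.06 in ASC and 0.934 to 1.15 in sham) and its depth.

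**Figure D4:**
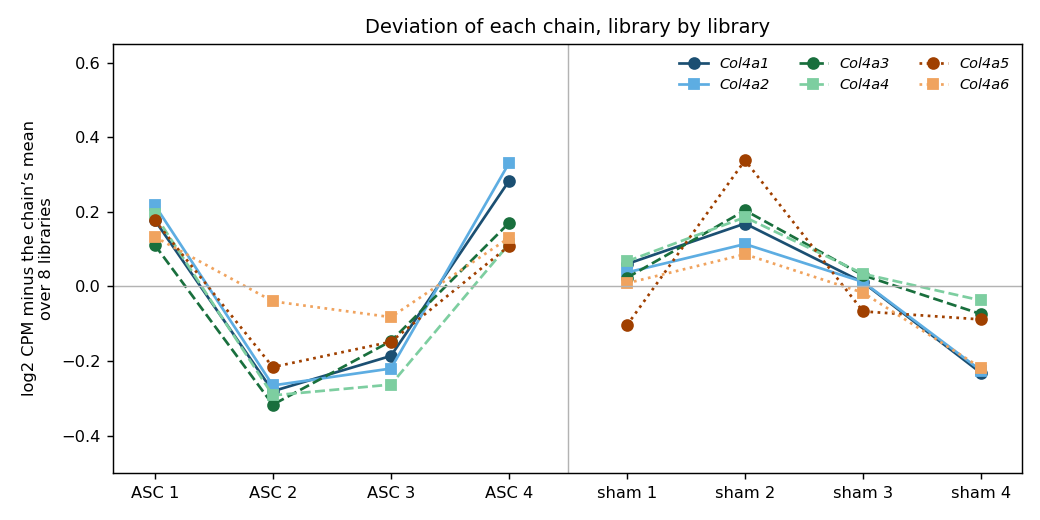
Log2 CPM of each chain minus its mean over the 8 libraries (vertical axis), for ASC 1 to 4 on the left and sham 1 to 4 on the right, with 1 line per chain and 1 hue per pair. The lines run nearly parallel, high in ASC 1, ASC 4 and sham 2 and low in ASC 2, ASC 3 and sham 4, with Col4a5 standing out in sham 2.

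The genes whose pattern was most like that of a chain were taken from 9539 other genes whose average log2 CPM was 3 or more, by the same correlation over 8 libraries within groups. For Col4a1 they were Trabd2b (0.988), Tram2 (0.985) and Stk10 (0.985), and for Col4a2 Stk10 (0.981), Xpo5 (0.979) and Tram2 (0.971). Col4a1 and Col4a2 thus had Tram2 and Stk10 in common. For Col4a3 they were Cadps2 (0.972), Nfkbiz (0.971) and Slc12a2 (0.969), and for Col4a4 Usp24 (0.994), Syde2 (0.993) and Sumf2 (0.979). For Col4a5 they were Dcaf1 (0.992), Mgat4a (0.989) and Plod2 (0.979), a lysyl hydroxylase of collagen, and for Col4a6 CT030661.1 (0.983), Tulp3 (0.979) and Fosl2 (0.976). The Col4a1 to Col4a2 value of 0.991 was above that of any of the 9539 other genes with either chain. Each of the other 4 chains had outside genes above its partner. With 8 libraries and 9539 candidates, high values can be reached by many genes.

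Marker lists for other cells that the capsule preparation could hold were measured in the same libraries. The 11 lens epithelium markers summed to 152569 to 235912 CPM in ASC and 147985 to 215289 CPM in sham. Most of that sum was alpha-crystallin, with Cryaa at 116187 to 188557 CPM and Cryab at 29355 to 45156 CPM. The other markers of that list reached at most 544 CPM each, so the sum mainly measures these crystallins. The 12 lens fibre markers summed to 105635 to 174043 CPM in ASC and 86287 to 157233 CPM in sham. In both lists 0 genes were called, beside 1.02% of all genes. Blood vessel cells also make type IV collagen. The 10 endothelial markers (7 tested) summed to 17.8 to 27.6 CPM in ASC and 17.0 to 30.0 CPM in sham. The 8 pericyte and smooth muscle markers (5 tested) summed to 105 to 163 CPM in ASC and 110 to 162 CPM in sham. None of these vessel genes passed the threshold, beside 1.02% of all genes. The 8 markers of corneal stroma and fibroblasts (6 tested) summed to 1361 to 1822 CPM in ASC and 1087 to 1378 CPM in sham. None of the tested ones passed the threshold, beside 1.02% of all genes. The 8 pigmented epithelium markers summed to 203 to 714 CPM in ASC and 91.7 to 264 CPM in sham. The 7 red cell markers (5 tested) summed to 73.9 to 370 CPM in ASC and 40.1 to 62.8 CPM in sham. Neither list held a called gene, beside 1.02% of all genes. The red cell sums of the groups did not overlap, a pattern that 9.06% of single tested genes also showed. The 9 retinal markers summed to 2118 to 4005 CPM in ASC and 1087 to 4493 CPM in sham. The 14 macrophage and leukocyte markers (13 tested) summed to 28.3 to 104 CPM in ASC and 12.5 to 58.1 CPM in sham. In each of these lists 0 genes were called, beside 1.02% of all genes. With so small a share called, 0 in lists this short says little about the amount of each cell type. Of 9 corneal epithelium markers, 5 were tested, and the keratins Krt5 and Krt12 were called higher in ASC, as were 0.631% of all genes. The list of 9 summed to 353 to 954 CPM in ASC and 391 to 608 CPM in sham. No listed marker was at 0 in all 8 libraries. The part of these cells in the levels of the chains was not tested.

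Before it leaves the cell, type IV collagen is hydroxylated, glycosylated, folded by collagen chaperones and loaded into large transport carriers. Of 22 genes listed for these steps, 21 were tested (all but P4ha3). Beside 1.02% of all genes, 0 of the 21 passed the threshold in either direction. Their log2 fold changes ran from -0.25 to 0.28, 16 of 21 were positive, and the median was 0.07 (0.029 to 0.12 with each library left out in turn), beside 0.008 for all tested genes. P4ha1, a catalytic subunit of prolyl 4-hydroxylase, had 302.5 ± 39.4 CPM in ASC and 284 ± 21.3 CPM in sham, a log2 fold change of 0.09 (edgeR adjusted p = 0.762). The collagen chaperone Serpinh1, also known as HSP47, had 216 ± 27.3 CPM in ASC and 199.6 ± 27.0 CPM in sham, a log2 fold change of 0.12 (edgeR adjusted p = 0.729). Both values turned slightly negative with library totals alone (-0.032 and -0.011), as did the median of this list (-0.051).

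Outside the cell, peroxidasin joins the NC1 domains of neighbouring protomers through sulfilimine bonds, and lysyl oxidase-like 2 crosslinks the 7S domains. Pxdn, which encodes peroxidasin, had 593 ± 45.8 CPM in ASC and 597 ± 52.1 CPM in sham, with a log2 fold change of -0.01 (95% interval -0.25 to 0.23, edgeR adjusted p = 0.981). Loxl2 had 97.3 ± 12.5 CPM in ASC and 109 ± 18.3 CPM in sham, with a log2 fold change of -0.16 (edgeR adjusted p = 0.624). None of the 7 crosslinking genes passed the threshold (0 higher, 0 lower), beside 1.02% of all genes. Of the 7, 2 had an unadjusted p under 0.05, beside 14.7% of all genes, and 4 were positive. The median of 0.03 had no stable sign, at -0.013 without ASC 2 and -0.082 with library totals alone.

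Cells bind type IV collagen through integrins with the beta1 chain and through discoidin domain receptors. Of 10 receptor genes, 8 were tested (all but Itgb3 and Adgrg6). Of the 8, 0 passed the threshold, beside 1.02% of all genes. An unadjusted edgeR p under 0.05 was reached by 0 of the 8, beside 14.7% of all genes. Itgb1, the beta1 chain, had 371 ± 36.9 CPM in ASC and 358 ± 33.9 CPM in sham (log2 fold change 0.05, edgeR adjusted p = 0.886). Ddr1 had 278 ± 27.0 CPM in ASC and 293 ± 15.7 CPM in sham (log2 fold change -0.07, edgeR adjusted p = 0.791). The median of the list was -0.09, with 3 of 8 positive, and it was 0.025 without sham 2 and -0.22 with library totals alone.

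The list of enzymes that cut type IV collagen and their inhibitors held 9 genes, of which Mmp3, Mmp7 and Mmp12 were too low to test. The median log2 fold change of the 6 tested genes was 0.44 (0.30 without sham 1 to 0.61 without ASC 1), and each was positive. For all tested genes the median was 0.008. In edgeR's test 0 of the 6 passed the threshold, beside 1.02% of all genes. DESeq2 called Timp1 and Timp3, and over all genes it called 593 in place of 162. Timp1, a secreted inhibitor named here after its values were seen, had 4.53, 4.56, 5.55 and 10.7 CPM in ASC 1 to 4, against 2.48, 2.99, 2.52 and 4.09 CPM in sham 1 to 4. Every ASC library was above every sham library, with ASC 4 well above the rest. Groups without overlap were found for 1 of the 6 tested genes of the list and for 9.06% of all tested genes. The log2 fold change of Timp1 was 1.08 (edgeR adjusted p = 0.124, DESeq2 adjusted p = 0.0317). Timp3, an inhibitor that stays bound to the matrix, had 174, 252, 223 and 249 CPM in ASC 1 to 4, against 128.5, 187, 181 and 144 CPM in sham 1 to 4. Its ASC libraries lay above the sham ones except for ASC 1, which 2 sham libraries exceeded. The log2 fold change of Timp3 was 0.49 (95% interval 0.16 to 0.81, edgeR adjusted p = 0.155), and DESeq2 put it past the threshold (adjusted p = 0.0474). Timp2, which also binds pro-MMP2, had 397 ± 47.1 CPM in ASC and 355 ± 25.0 CPM in sham (log2 fold change 0.16, edgeR adjusted p = 0.539). The tested proteases are named here after their values were seen. Log2 fold changes were 0.40 for Mmp14 (edgeR adjusted p = 0.707), 0.10 for Mmp2 (0.877) and 0.84 for Mmp9 (0.482). Mmp9 was near the floor, with means of 0.986 CPM in ASC and 0.529 CPM in sham.

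Among other basement membrane components, 22 of 26 listed genes were tested (all but Lama4, Lamc3, Col15a1 and Smoc2). Of the 22, 0 passed the threshold, beside 1.02% of all genes, and 17 were positive. The median of the list was 0.16 (0.10 to 0.19 with each library left out in turn), beside 0.008 for all tested genes. With library totals alone it was 0.037, beside -0.116 for all tested genes. Sparc, a collagen-binding matricellular protein, had 3749 ± 303 CPM in ASC and 3775 ± 400 CPM in sham (log2 fold change -0.01, edgeR adjusted p = 0.984). Nid1, whose product nidogen bridges laminin and type IV collagen, had 2155 ± 270.5 CPM in ASC and 1884 ± 238 CPM in sham (log2 fold change 0.19, edgeR adjusted p = 0.577).

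The only collagen gene of the 31 tested to pass the threshold was Col1a1, the alpha1 chain of fibrillar type I collagen. Among fibrillar and associated collagens, 17 of 18 were tested (all but Col14a1), with 1 higher and 0 lower in ASC, beside 1.02% of all genes called. Of the 17, 13 were positive, and the median was 0.30, beside 0.008 for all tested genes. The median of the list was 0.14 without sham 1 and 0.43 with limma-voom. Col1a1 had 4.34, 4.02, 4.57 and 5.13 CPM in ASC 1 to 4, against 1.83, 2.01, 1.16 and 1.19 CPM in sham 1 to 4. Every ASC library was above every sham library. Groups without overlap were found for 2 of the 17 tested genes of the list and for 9.06% of all tested genes. Col1a1 rose in ASC by a log2 fold change of 1.53 (SE 0.26, 95% interval 0.97 to 2.09, edgeR adjusted p = 0.0186). Without ASC 3, ASC 4 or sham 4 the value was 1.52, 1.46 or 1.43. The edgeR adjusted p was then 0.0584, 0.0605 or 0.0547, short of the threshold. Per kilobase its level stayed far below the type IV chains, at 0.688 ± 0.0714 CPM in ASC and 0.236 ± 0.0661 CPM in sham. Col1a2, the other chain of type I collagen, is named here after its values were seen. Col1a2 was more abundant, with 45.3 ± 15.4 CPM in ASC and 43.6 ± 14.6 CPM in sham. Its log2 fold change was 0.06 (edgeR adjusted p = 0.956), so the rise of Col1a1 was not shared by Col1a2.

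The 2 most abundant members of that list were Col6a3, with 595 ± 117 CPM in ASC and 485 ± 44.2 CPM in sham (log2 fold change 0.30, edgeR adjusted p = 0.383), and Col9a1, a chain of the fibril-associated type IX collagen, with 96.3 ± 41.4 CPM in ASC and 92.3 ± 54.0 CPM in sham (log2 fold change 0.06, edgeR adjusted p = 0.977). The interval of the Col1a1 change lies above the interval of each type IV chain, the highest of which ends at 0.41. The difference between genes was not tested.

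**Figure D5:**
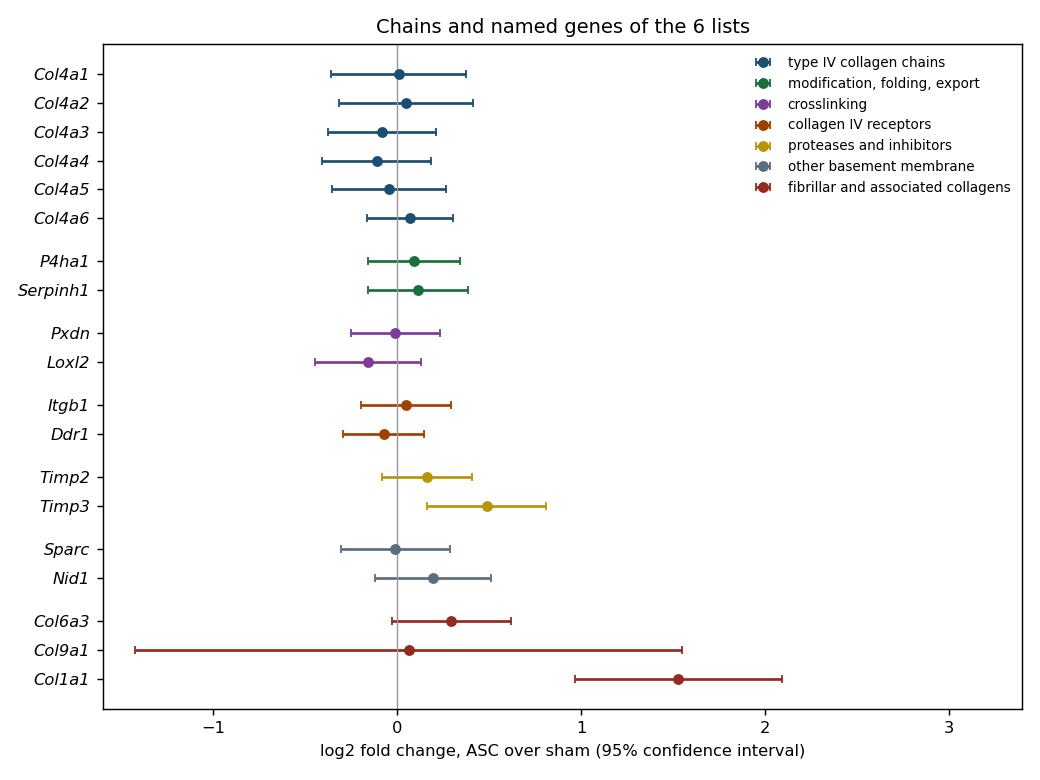
Log2 fold change of ASC over sham (points) with 95% confidence intervals (bars) for the 6 chains and the genes named from the 6 lists, coloured by list. The intervals of all 6 chains include 0, and that of Col1a1, 0.97 to 2.09, does not.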

How the data were processed

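RNA from lens capsules was measured by poly-A RNA-seq with random priming from fragments of 370 to 420 bp, as the labels' protocols state. The authors deposited 1 table of counts per gene, whole numbers without normalization. CASAVA, fastp, HISAT2 2.0.5 and featureCounts 1.5.0-p3 were used, per the submitters' processing notes. The sources used here do not give the genome build, annotation, strand setting or treatment of reads matching several genes. All 8 count columns were used, and 54409 of 54532 gene identifiers matched a symbol.

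Counts were tested with edgeR 4.0.16 in R 4.3.3 (filterByExpr, TMM, ASC against sham by the quasi-likelihood F test with robust estimation, no covariate), with Benjamini-Hochberg adjustment over 15857 genes and a threshold of 0.05. Log2 fold changes are ASC over sham. CPM are means ± SD of 4 libraries, and a prior count of 2 was added before taking log2 CPM. The 5 count ratios used a pseudocount of 0.5 and a two-sided exact permutation test. P-values set the difference between groups against the spread between these libraries. Levels per kilobase used exon lengths from GENCODE release 21. Libraries of 14420494 to 21141582 counts carried no molecular identifiers, so counting error refers to reads.

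The chains, gene lists and markers were chosen with earlier results of these data known. Named are the 6 chains, and from each list up to 4 called genes by size of change, if their average log2 CPM reached 1, plus its 2 most abundant members. Genes most like a chain were the 3 with the highest correlation. Alternatives were DESeq2 1.42.0, limma-voom (limma 3.58.1), other scalings and filters, a fit without robust estimation, the replicate number as a block and each library left out.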

Additional observations from a re-analysis of the deposited data

Results flagged for a closer look

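In all, 70 groups of 4 values were examined for a library far from the other 3. They were the chains, ratios, named genes, marker list sums and the chains' percent of counts. Of the 70, 1 held such a library. Col4a5 in sham 2 stood at 1119 CPM, with the other sham libraries at 823.8 to 845.1 CPM. Its gap to the nearest of them was 0.928 of the group's whole range, above Dixon's limit for 4 samples. Chance alone marks about 1 in 20 groups. The other 5 chains were also above their means in sham 2, by 0.09 to 0.20 on the log2 scale against 0.34 for Col4a5. The same library held the lowest count of Col4a6 per 100 Col4a5, 39.7. Without sham 2 the log2 fold change of Col4a5 was 0.07 in place of -0.04 and did not pass the threshold.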

How the results depend on the processing

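None of the 6 chains passed the threshold in any of 19 alternatives (lowest adjusted p of a chain 0.44). None of the 5 ratios did in 11 (lowest adjusted p by exact permutation 0.14), but these alternatives cannot decide whether a ratio differs. With so few libraries, a single ratio on its own could not pass after adjustment in any of the 11. With the replicate block, the smallest p possible is above the threshold even before adjustment. Over all genes, 593 were called by DESeq2 and 712 without the low-count filter, in place of 162, with 336 higher and 257 lower by DESeq2. The protease and inhibitor list then held 2 called genes in each setting, Timp1 and Timp3, and the fibrillar list 2 by DESeq2 (Col1a1 and Col8a1) and 3 without the filter (Col1a1, Col12a1 and Col16a1). With library totals alone, the median of all genes was -0.116 in place of 0.008, and the log2 fold changes were -0.13 for Col4a1, -0.084 for Col4a2, -0.061 for Col4a6, -0.032 for P4ha1, -0.011 for Serpinh1, -0.082 for Itgb1 and -0.070 for Col9a1. Small values also changed sign with limma-voom (Col4a1 -0.050, Col4a2 -0.030), with upper quartile scaling (Col4a1 -0.010), without the filter (Col4a1 -0.0065) and with scaling to lens epithelial genes, an alternative chosen after seeing the data (Col4a5 0.024, Pxdn 0.053, Sparc 0.057). Leaving out each library in turn gave 56 to 228 called genes (101 without ASC 1, 72 without ASC 3, 67 without ASC 4, 79 without sham 1, 56 without sham 2 and 67 without sham 4) and 0 to 1 in the fibrillar list. It gave log2 fold changes of -0.095 to 0.093 for Col4a1, -0.065 to 0.14 for Col4a2, -0.16 to -0.00054 for Col4a3, -0.20 to -0.040 for Col4a4, -0.11 to 0.069 for Col4a5 and 0.010 to 0.11 for Col4a6. For Pxdn it gave -0.070 to 0.025, for Itgb1 -0.013 to 0.10, for Sparc -0.056 to 0.046 and for Col9a1 -0.27 to 0.34. The Col4a4 to Col4a3 log2 difference ran from -0.066 to 6.2e-05, and that of Col4a5 plus Col4a6 to Col4a1 plus Col4a2 from -0.057 to 0.045. Whether replicate numbers pair the libraries was not tested. Deviations from group means of same-numbered libraries correlated at 0.217, 0.0573, 0.214 and -0.0897 for replicates 1 to 4. For replicate 3 the best match had the same number in both directions, for replicate 1 only from sham, and for replicates 2 and 4 in neither. With the replicate block, 169 genes were called (130 higher, 39 lower) and Col4a1 was at -0.0040. The causes of these shifts were not tested. With 4 libraries a group, the intervals of the chains leave room for changes of up to about 1.33-fold.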

Other observations

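Of the 21 tested genes for the steps before secretion, 2 had an unadjusted p under 0.05, a smaller share than the 14.7% of all tested genes. Both are named here after their values were seen. P4ha2, a second catalytic subunit of prolyl 4-hydroxylase, had 151, 130.4, 137 and 137 CPM in ASC 1 to 4, against 171, 164, 157 and 170.2 CPM in sham 1 to 4. Every ASC library was below every sham library, which holds for 9.06% of all tested genes in one direction or the other, and the log2 fold change of -0.25 did not pass the threshold (edgeR adjusted p = 0.205). Plod3, a lysyl hydroxylase that also adds glucose to collagen, had 44.5 ± 3.48 CPM in ASC and 37.5 ± 3.17 CPM in sham (log2 fold change 0.25, edgeR adjusted p = 0.256).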
